A study of Caenorhabditis elegans with 2 samples.

Results

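The genes described here are the 261 microRNA (miRNA) genes among 46890 genes on the nuclear chromosomes of Caenorhabditis elegans, taken by their biotype in Ensembl release 115. HMG-1.2 is a chromatin protein whose HMG boxes bend the DNA they bind. Its positions were mapped by chromatin immunoprecipitation and sequencing in whole young adults, 65 h old, of strain RW12210, in which CRISPR placed TY1, EGFP and 3xFLAG tags in hmg-1.2 on chromosome III. Both samples carried the tag, were bleached and starved as first-stage larvae, and are numbered biological replicates 1 and 2, so no conditions were compared. Whether the replicates were grown as separate cultures is not stated, and whole animals mix the nuclei of every tissue. The labels' description names an antibody against GFP, and their antibody field names hmg-1.2.

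The authors' conservative peak set over both replicates held 4149 peaks, against 3340 in the thresholded set of replicate 1 and 5333 in that of replicate 2. The depth behind these lists is unknown. A miRNA gene was called bound when its core window, 500 bp upstream to 100 bp downstream of the annotated 5′ end, held a peak summit. A wide window reached 2000 bp upstream. For nearly every miRNA the annotated gene is the hairpin precursor, with a median length of 95 bp, so its 5′ end is not a measured transcription start. The exception among the genes named below is let-7, whose record is a primary transcript of 1732 bp. The signal of a peak is the authors' own value, its scale is not stated, and it is used only to describe and rank peaks within 1 list.

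A miRNA is cut from a longer transcript of RNA polymerase II. In the nucleus the Drosha and Pasha proteins release a hairpin, Dicer trims it to a short duplex, and 1 strand is kept by an Argonaute protein. The bound strand pairs with messenger RNAs mainly through its seed, bases 2 to 8, so miRNAs with the same seed form families. The worm's lin-4 and let-7 were the founding miRNAs and time the larval stages.

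The strands below show the seeds of the families whose loci are described first, with mir-42 as a family member that had no conservative peak. They were read from RefSeq coordinates on the WBcel235 genome, which is the ce11 build, 5′ to 3′, with the seed in capitals. The first 4 belong to the mir-35 family, the next 4 to the mir-51 family, and the last 3 to the let-7 family. Between them stand mir-61 and mir-250, which share the strongest peak, and mir-90 and mir-80.
mir-35: uCACCGGGuggaaacuagcagu
mir-36: uCACCGGGugaaaauucgcaug
mir-41: uCACCGGGugaaaaaucaccua
mir-42: uCACCGGGuuaacaucuacaga
mir-51: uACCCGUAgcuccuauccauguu
mir-52: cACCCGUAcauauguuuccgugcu
mir-53: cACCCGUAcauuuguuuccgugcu
mir-54: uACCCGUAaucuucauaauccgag
mir-61: uGACUAGAaccguuacucauc
mir-250: aAUCACAGucaacuguuggc
mir-90: uGAUAUGUuguuugaaugccccu
mir-80: uGAGAUCAuuaguugaaagccga
mir-48: uGAGGUAGgcucaguagaugcga
mir-241: uGAGGUAGgugcgagaaauga
let-7: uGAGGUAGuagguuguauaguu

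The next set shows what lay under 5 of the strongest miRNA summits. Each is the 101 bp centred on the summit, on the strand of the miRNA gene, in ce11. Capitals mark GAGAG or its complement CTCTC, a motif chosen after these sequences had been seen. The windows are chrV:11770245-11770345 for mir-61, chrIV:14033548-14033648 for mir-52, chrII:11537345-11537445 for mir-35, chrIV:11027814-11027914 for mir-53 and chrX:13145298-13145398 for mir-54. Those of mir-52 and mir-35 are on the plus strand and the other 3 on the minus strand.
mir-61: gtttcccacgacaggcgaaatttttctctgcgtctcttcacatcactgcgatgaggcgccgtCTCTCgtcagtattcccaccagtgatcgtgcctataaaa
mir-52: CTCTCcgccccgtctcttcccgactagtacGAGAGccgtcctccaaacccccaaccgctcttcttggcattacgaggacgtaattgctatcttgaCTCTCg
mir-35: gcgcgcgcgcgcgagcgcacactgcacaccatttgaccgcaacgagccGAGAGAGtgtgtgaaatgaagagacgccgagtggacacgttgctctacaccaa
mir-53: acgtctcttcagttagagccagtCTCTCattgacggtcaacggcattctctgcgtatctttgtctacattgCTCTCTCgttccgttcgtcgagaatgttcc
mir-54: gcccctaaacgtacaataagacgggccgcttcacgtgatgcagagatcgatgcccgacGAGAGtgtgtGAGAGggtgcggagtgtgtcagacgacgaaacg

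HMG-1.2 peaks lay next to a minority of miRNA genes, and 17 of the bound genes lie in clusters. In the conservative set 34 of the 261 genes (13.0%) had a summit in the core window, against 8.84% of 19973 protein-coding genes and 6.93% of all nuclear genes. Replicate 1's own set gave 30 genes (11.5%) against 6.33% of protein-coding genes, and replicate 2's gave 45 (17.2%) against 12%. The miRNA share over the replicates was 14.4% ± 4.06 (SD, n = 2). The protein-coding share moved the same way between the 2 lists, so this SD does not measure the spread of the excess within a set. Both replicates' own sets placed a summit in the core window of 27 miRNA genes (10.3%), against 5.54% of protein-coding genes. These shares describe peak sets of 1 group, and since clustered genes share peaks and genes are not replicates, no test was made.

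In the wide window 57 miRNA genes (21.8%) were bound, against 15.4% of protein-coding genes and 12.1% of all nuclear genes. Replicate 1 gave 51 genes (19.5%), beside 11.4% of protein-coding genes, and replicate 2 gave 73 (28.0%), beside 20.6%. The remaining 204 miRNA genes had no conservative summit in either window. Among other small RNA classes tRNA genes (77.8%), snRNA genes (48.1%) and snoRNA genes (30.9%) had higher core shares than miRNA genes, and piRNA genes (0.820%) a lower one.

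Of the 34 genes, 18 lie wholly inside a protein-coding gene. They are mir-35, mir-36, mir-37, mir-40, mir-41, mir-54, mir-55, mir-71, mir-90, mir-229, mir-253, mir-58.1, mir-1829.2, mir-2214, mir-4812, mir-4929, mir-5595 and mir-8192. The other 16 lie outside, namely mir-48, mir-51, mir-52, mir-53, mir-61, mir-73, mir-74, mir-80, mir-241, mir-250, mir-4934, mir-4936, mir-5549, mir-5551, mir-8186.2 and mir-8196.1. That made 17.0% of the 106 inside genes and 10.3% of the 155 outside genes. Replicate 1 gave 16.0% and 8.39%, and replicate 2 gave 21.7% and 14.2%, so the inside share was higher in each set. With only hosts on the same strand counted, the conservative shares were 13.5% inside and 12.8% outside, and the gap nearly closed in that set. Same-strand genes had 10.8% in replicate 1 and 23.0% in replicate 2. In replicate 2 they stood above outside genes (14.2%) and opposite-strand genes (18.8%), so the gap did not close there. With hosts on either strand, the replicate means were 18.9% ± 4.0 inside and 11.3% ± 4.11 outside (SD, n = 2). Protein-coding genes that lie inside another protein-coding gene had the lower share, 6.36% against 8.93%.

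Counting each locus once narrowed the gap. Genes no more than 5000 bp from their neighbour on the same strand were joined, which gave 216 loci, 25 of them (11.6%) with a core-bound gene. Loci with an inside gene were bound in 13 of 92 cases (14.1%), and loci with an outside gene in 12 of 125 (9.60%). The 18 inside genes have 13 hosts. All 18 lie within introns, a place shared by 99 of the 106 inside genes.

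Strand relative to the host gave no steady order. In the conservative set 8 of 32 genes on the host's opposite strand (25%) were bound, against 10 of 74 on its strand (13.5%). Replicate 1 gave 28.1% against 10.8%, whereas replicate 2 gave 18.8% against 23.0%. All but mir-5595 of the 8 lie in just a pair of hosts, Y62F5A.9 with the mir-35 cluster and F09A5.3 with mir-54 and mir-55.

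Genes were also split by clustering. In clusters of 2 or more, 17 of 69 genes (24.6%) were bound, while 17 of 192 lone genes (8.85%) were, a share next to that of protein-coding genes. Both replicates showed the same order, with 21.7% against 7.81% in replicate 1 and 26.1% against 14.1% in replicate 2. A peak can serve several neighbours, so these genes are not independent. Of the 24 clusters 8 held a core-bound gene (33.3%), a share not comparable with that of lone genes, since a cluster has more windows. In a split chosen after the values were seen, genes numbered below 400, with lin-4, let-7 and lsy-6, were bound in 22 of 120 cases (18.3%), and genes with higher numbers in 12 of 141 (8.51%). By chromosome the share ran from 1 of 33 genes on I (3.03%) to 6 of 27 on III (22.2%).

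**Figure D1:**
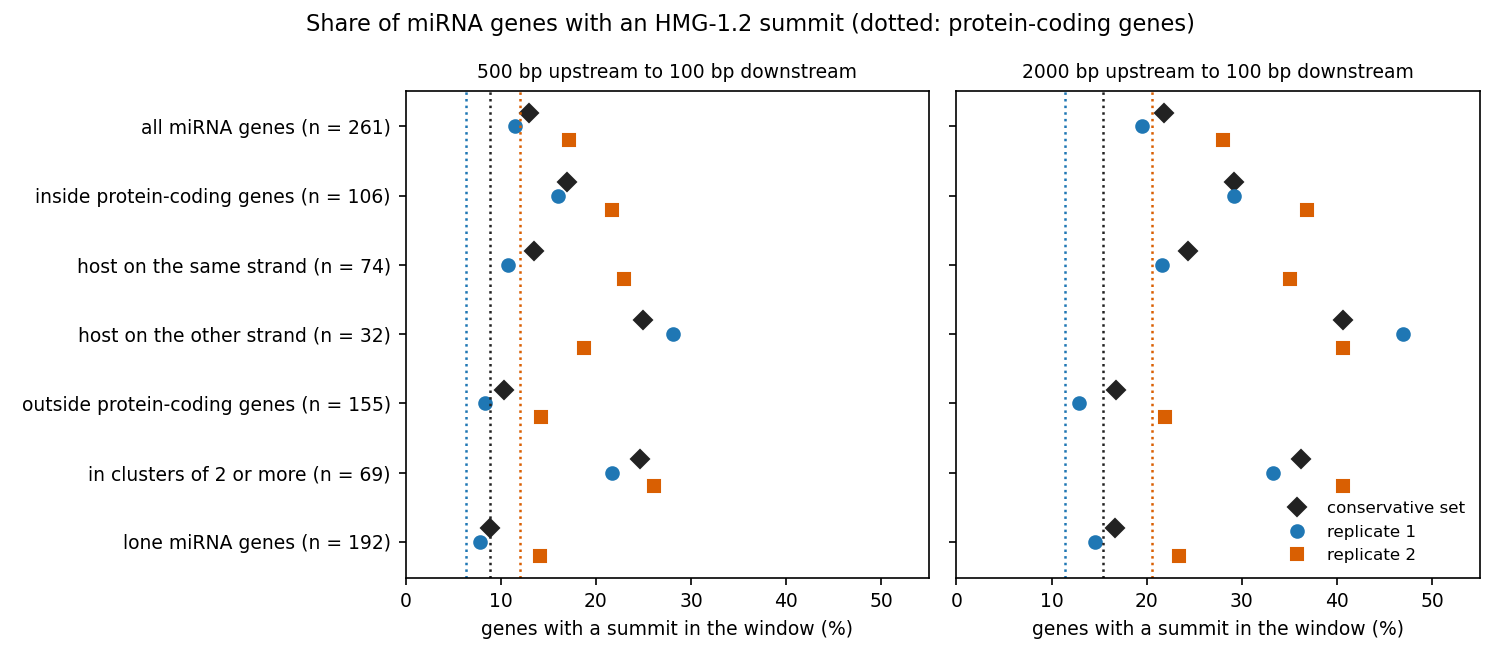
Share of miRNA genes with a summit in the core window (left) and wide window (right), in percent, by place and clustering, with 1 point for the conservative set and 1 for each replicate's own set. Dotted lines give the share of all protein-coding genes in the set of the same colour. Clustered genes sit at 24.6% in the core window and lone genes at 8.85%, beside the protein-coding 8.84%.

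The mir-35 family, which is needed for embryonic development, had a strong peak in front of its main cluster. The cluster holds mir-35 to mir-41 on chromosome II, in an intron of Y62F5A.9 and on the opposite strand. A peak at chrII:11537256-11537519 had its summit at -213 bp from the 5′ end of mir-35, -318 bp from that of mir-36 and -438 bp from that of mir-37. Its signal was 813 in the conservative set (rank 478), 293 in replicate 1 (rank 415) and 516 in replicate 2 (rank 566). The replicates' summits lay at -206 and -216 bp from mir-35, within a few bases of each other. The same summit reached mir-38 at -538 bp and mir-39 at -694 bp in the wide window.

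A second, weak peak within the cluster, at chrII:11538118-11538447, put mir-40 and mir-41 in the bound set. Its summit lay at 99 bp from the 5′ end of mir-40 and -25 bp from that of mir-41, with a signal of 97.7 and rank 3841. Replicate 1 listed it (signal 56.5, rank 2750). Replicate 2's thresholded set did not, although its ranked list held an overlapping peak with a signal of 46.0 and a score of 139. The eighth family member, mir-42, lies apart with mir-43 and mir-44. Replicate 2 alone had a summit there, at -262 bp from mir-42 (signal 147), and the nearest upstream conservative summit was at -9141 bp. In all, 5 of the 8 genes with this seed were bound in the core window and 7 in the wide one, beside 13.0% and 21.8% of all miRNA genes. These 8 genes make 2 loci, of which 1 was core-bound, so the gene counts mostly repeat shared peaks.

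The mir-51 family, the worm relatives of miR-100, had a core-bound gene at each of its 3 loci. Its members are needed together in the embryo. Of the 6 genes with this seed, 5 were bound in the core window in the conservative set and in each replicate, and all 6 in the wide window. Over all miRNA genes the conservative shares were 13.0% and 21.8%. Neighbours share peaks, so these genes are not separate cases. The peak at mir-52 (chrIV:14032836-14033950) ranked 243 with a signal of 1226, and its summit lay at -410 bp. Replicate 1 gave it 151 (rank 958) and replicate 2 gave 1040 (rank 157), so it stood much nearer the top of replicate 2's list.

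Neighbouring mir-53 and mir-51 on chromosome IV each had a peak of their own. That of mir-53 (chrIV:11027704-11027984) had its summit at -173 bp and a signal of 796, with 127 in replicate 1 and 666 in replicate 2. That of mir-51 (chrIV:11026144-11026359) had its summit at -123 bp and a signal of 324, with 121 and 209 in the replicates. The mir-53 summit also lies at -1752 bp from mir-51, so it fell in the wide window of that gene.

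The third locus, on chromosome X, had 1 peak in front of 3 genes. It lay at chrX:13145150-13145585, with its summit at -254 bp from mir-54 and -424 bp from mir-55. The summit was inside F09A5.3, the host on the opposite strand. The signal was 651 in the conservative set, 154 in replicate 1 and 498 in replicate 2. For the third gene, mir-56, the summit was at -561 bp, so it was bound only in the wide window. The conservative and replicate summits of this peak fell within a few bases of each other.

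The strongest peak at any miRNA gene was that of mir-61 and mir-250 on chromosome V. In vulval precursor cells mir-61 acts downstream of LIN-12, the Notch receptor. The peak (chrV:11770125-11770446) ranked 62 of the 4149 conservative peaks with a signal of 2473. Its signal was 1116 in replicate 1 (rank 54) and 1338 in replicate 2 (rank 87). The summit lay at -139 bp from mir-61 and -280 bp from mir-250, and also in the core window of the protein-coding gene F55A11.4. By list, 1 of 3 genes of the mir-2 group was core-bound, namely mir-250, and 1 of 4 of the group of mir-44 and mir-61. Over all miRNA genes the core share was 13.0%, and nothing is read from such small counts. By seed, mir-250 was the 1 core-bound gene of 4. Other genes with the seed of mir-61, which are mir-44, mir-45 and mir-247, had no conservative summit in the core or wide window.

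In a further pair of clusters the summit also lay in front of the first gene. At mir-229, mir-64, mir-65 and mir-66, in an intron of gcn-1, which encodes a regulator of translation, the summit lay at -257 bp from mir-229. This peak (chrIII:2172030-2172344) had a signal of 514, with 99.0 in replicate 1 and 412 in replicate 2. For the other 3 genes of the cluster the summit was at -653, -807 and -913 bp, so they were bound only in the wide window. At mir-73 and mir-74 the summit lay at -179 and -457 bp. Its peak (chrX:2368536-2368664) had a signal of 228, with 54.8 and 162 in the replicates. Farther along the same cluster, mir-75 had no conservative summit in either window. The third gene on the list of mir-73 and mir-74, mir-72 on chromosome II, was bound only in the wide window at -1609 bp. So 2 of 3 on that list were core-bound, and 2 of the 6 genes with the seed of mir-73. Of the 4 genes of the mir-64 group 1 was core-bound, and 1 of the 5 with the seed of mir-229. These small counts stand beside 13.0% over all miRNA genes.

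**Figure D2:**
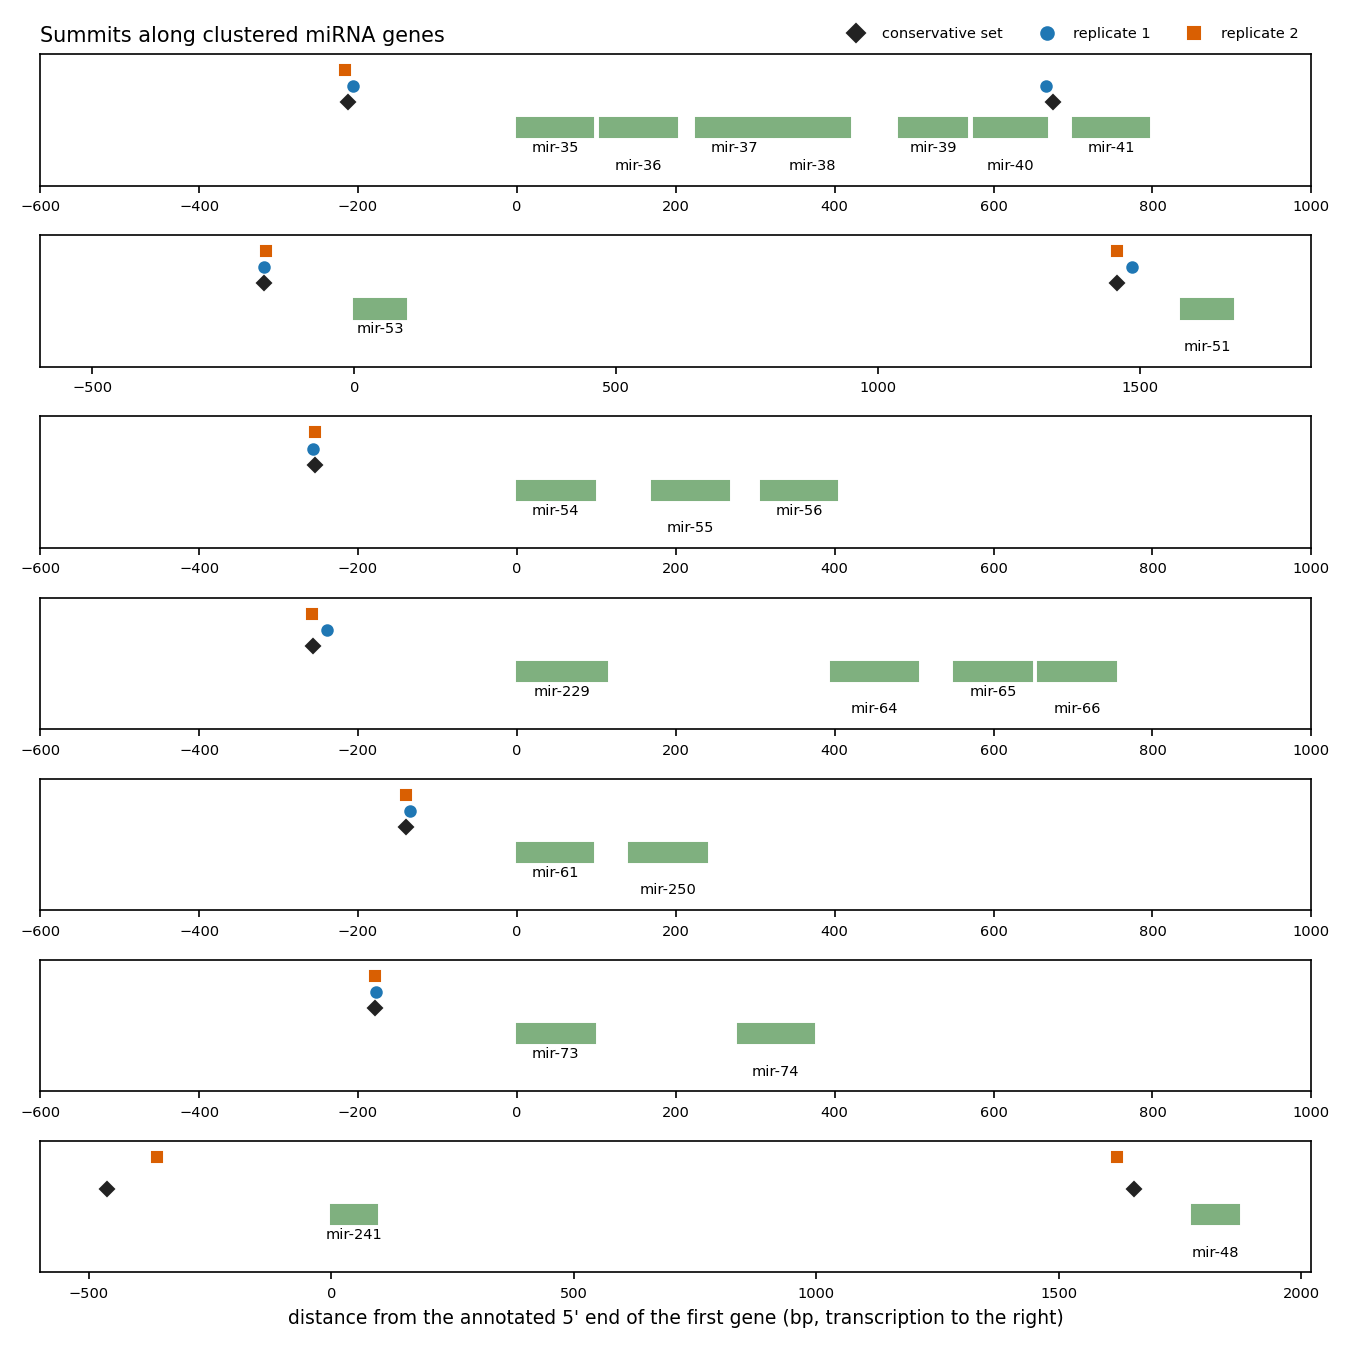
Summits along 7 groups of neighbouring miRNA genes, by distance in bp from the annotated 5′ end of the first gene, with transcription to the right. Boxes are the annotated genes, and the rows of markers are the summits of the conservative set and of each replicate. In the mir-35, mir-53, mir-54, mir-229, mir-61 and mir-73 groups a summit of all 3 sets stands in front of the first box. Replicate 1 has none at mir-241 and mir-48.

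The heterochronic miRNAs, which time larval cell divisions, had weak or distant peaks in these young adults. Among the 5 genes of that list, the neighbours mir-48 and mir-241 were bound in the core window, where the share over all miRNA genes was 13.0%. The summit of mir-48 lay at -118 bp with a signal of 79.1 (rank 3987), and that of mir-241 at -463 bp with a signal of 88.1 (rank 3950). Both had a thresholded peak in replicate 2 only, with signals of 69.8 and 67.3. In replicate 1's ranked list the overlapping peaks had scores of 333 and 418. The only let-7 summit lay at -1832 bp from the start of its primary transcript and in the core window of the protein-coding gene C05G5.2. Its signal was 192, and it too had a thresholded peak in replicate 2 only (signal 159). In replicate 1's ranked list the overlapping peak had a score of 154. For mir-84 the nearest upstream summit was at -2315 bp. At lin-4, replicate 2 alone had a summit, at -433 bp with a signal of 85.8.

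In the mir-58 family, related to bantam of Drosophila, mir-80 and mir-58.1 were core-bound among the 8 genes matched from its list. By the seed of mir-80, 1 of 6 genes was core-bound, beside 13.0% over all miRNA genes. The list holds mir-58.1, mir-2209.2 and mir-2209.3, which lack that seed. It leaves out mir-58c, which has the seed and was not bound. The peak at mir-80 (chrIII:8865544-8865822) had its summit at -308 bp and a signal of 461. Here the summit was not in front of the cluster, since mir-238, on the same strand, comes first and the summit lay 1750 bp downstream of its 5′ end. Replicate 2 gave 408 at the same position, whereas replicate 1's nearest thresholded summit lay at -203 bp with a signal of 63.9. The peak at mir-58.1 had a signal of 135.4 at -368 bp and was listed by replicate 2 (104) and not by replicate 1. None of mir-58.2, mir-81, mir-82 and the 3 mir-2209 genes had a conservative summit in the wide window.

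In the stress and ageing list, 1 of 7 genes (14.3%) was core-bound, beside 13.0% of all miRNA genes. This was mir-71, which promotes long life. Its summit lay at -375 bp, inside ppfr-1, which encodes a subunit of protein phosphatase 4. The peak (chrI:9380320-9380457) had a signal of 216, with 70.7 in replicate 1 and 140 in replicate 2. Stronger and weaker summits further upstream, at -1466 and -1669 bp, had signals of 310 and 212. On the same list mir-34 was bound only in the wide window, at -1266 and -1851 bp, with thresholded peaks in replicate 2 only.

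None of the 5 genes of the neuronal and muscle list had a conservative summit in the wide window. That list holds lsy-6, which sets the identity of a taste neuron, mir-124 and mir-1. Replicate 2 alone had a summit at mir-124, at -472 bp with a signal of 123. The 3 genes of the gut and defecation list and the 4 mirtrons, whose hairpins are whole introns released by splicing, had no summit in the core window of any set. These lists are short beside a share of 13.0% over all miRNA genes, so nothing is read from their counts of 0.

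Among single genes outside hosts, mir-8186.2 had the strongest core peak after that of mir-52. It lay at chrII:18875-19199 with its summit at -351 bp and a signal of 1202, against 467 in replicate 1 and 735 in replicate 2. The summit also lay in the core window of gmeb-1. The record of mir-8186.1 lies across mir-8186.2 on the other strand. From its 5′ end the same summit was 410 bp downstream, so mir-8186.1 was not bound. The peak at mir-8196.1 (chrX:2328811-2329041) had its summit at -61 bp and a signal of 712. Here replicate 1 gave 472 (rank 222) and replicate 2 gave 243 (rank 1394), so it stood nearer the top of replicate 1's list.

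The peak near mir-5549 (chrIII:6972014-6972193) had its summit at -22 bp and a signal of 352, with 106 and 246 in the replicates. That summit was also in the core windows of eef-1A.1, a translation elongation factor gene, and rfc-4, a replication factor gene. At mir-5551 (chrIV:9757148-9757307) the summit lay at -290 bp with a signal of 268, in the core window of nhr-97, a nuclear hormone receptor gene. Replicate 2 listed it at 227 and replicate 1's thresholded set did not. Weaker peaks stood at mir-4934, at -32 bp (signal 169) and in the window of the RNA helicase gene mtr-4, and at mir-4936, at 46 bp (signal 159).

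Among inside genes beyond the clusters, mir-90 had the strongest peak. It lay at chrIII:8874216-8874454, with its summit at -261 bp, inside the same-strand host K01F9.2, and a signal of 719. Replicate 1 gave 137 at -253 bp and replicate 2 gave 582 at -261 bp. Neither mir-50 nor mir-62, which share the seed of mir-90, was bound. The peak at mir-253 (chrV:5780832-5781006) had a signal of 405 at -319 bp, with 82.1 and 320 in the replicates. At mir-2214 (chrIII:7278580-7278781) it was 286 at -29 bp, with 157 and 129.

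Signals at the remaining inside genes were lower. The peak at mir-8192 (chrII:6943731-6943865) had its summit at -76 bp and a signal of 261, and was listed by replicate 2 at 215 and not by replicate 1. At mir-4812 (chrX:15242805-15243134), in the phosphoinositide 3-kinase gene piki-1, the summit lay at -121 bp and the signal was 235.2, with 74.1 and 156 in the replicates. Of the summits at mir-5595 the stronger one (chrII:14399450-14399779) lay at 14 bp with a signal of 184, with 50.5 and 150 in the replicates. The last of the inside genes were mir-1829.2 (signal 120 at -96 bp) and mir-4929 (signal 109 at -306 bp).

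Only 4 of the 18 inside genes had a summit that was also in a core window of their host. These were mir-8192 in flcn-1, the folliculin gene, mir-4929 in E01G4.3, mir-5595 in nurf-1, a chromatin remodelling gene, and mir-253 in F44E7.5. For the other 14 the summit lay within 500 bp of the miRNA but in no core window of the host's annotated 5′ ends. Of the 29 distinct core summits, 10 lay in the core window of any annotated 5′ end of a protein-coding gene (34.5%), against 40.5% of all conservative summits. None lay in the core window of a tRNA, snRNA, snoRNA or rRNA gene, whereas tRNA windows alone held 10.5% of all conservative summits. The remaining 19 lay in no window of these classes.

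**Figure D3:**
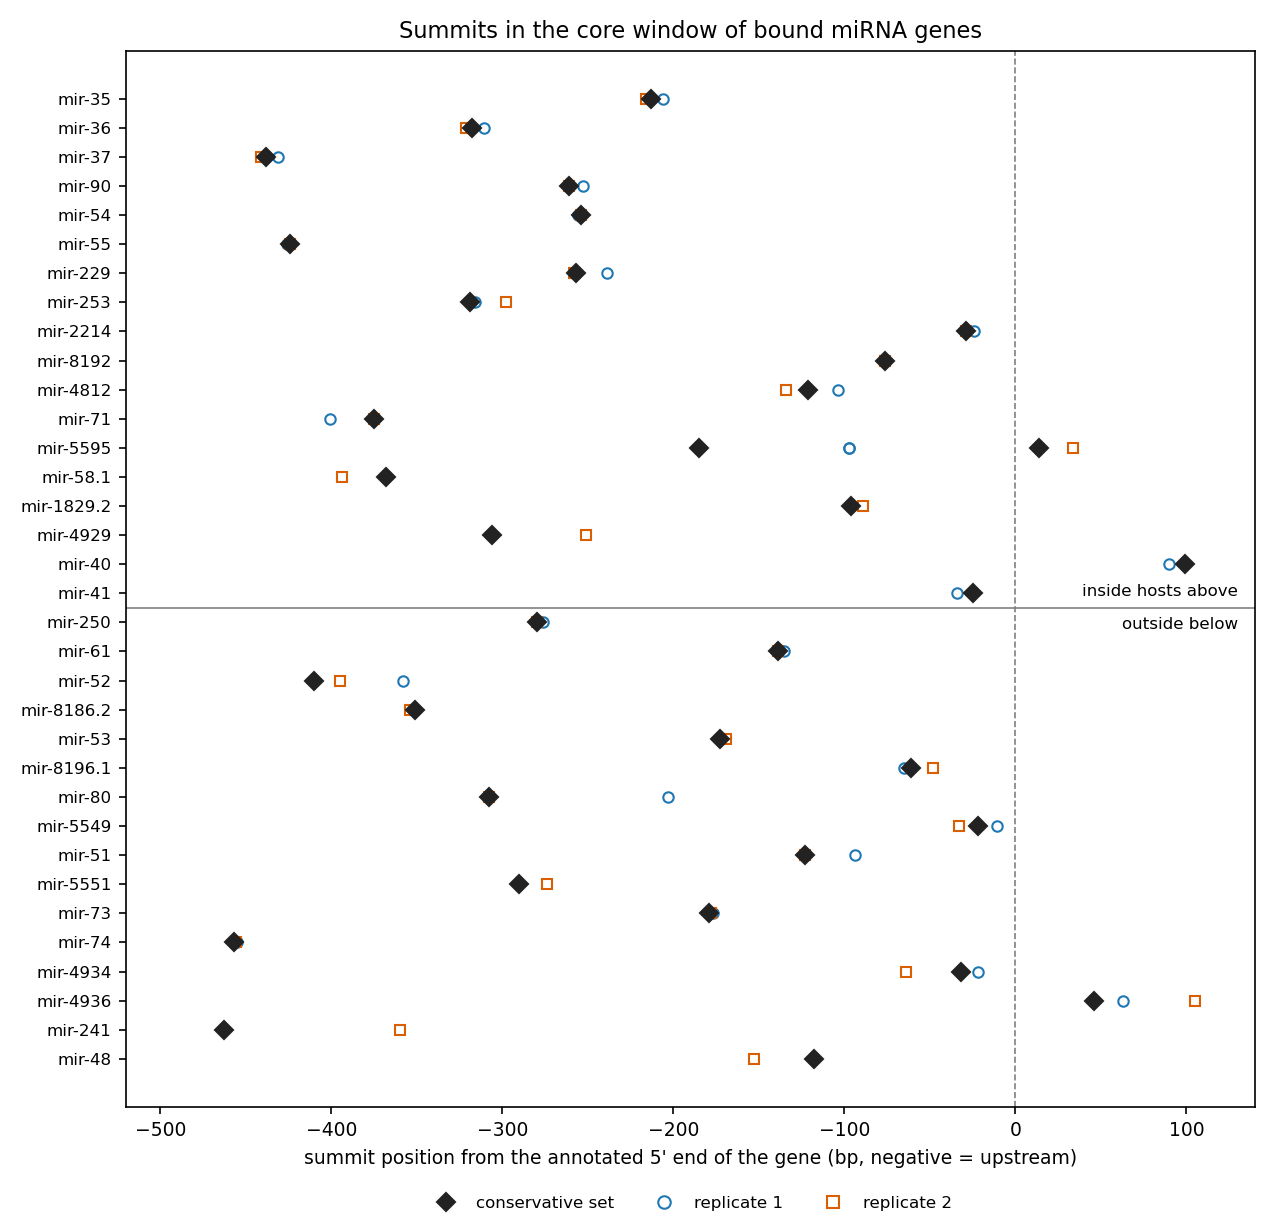
Position of each summit in bp from the annotated 5′ end (0, dashed) for the 34 core-bound miRNA genes, inside genes above the line and outside genes below, ordered by rank. Filled diamonds are the conservative set, open circles replicate 1 and open squares replicate 2, drawn where the replicate's thresholded peak overlapped. Most markers lie upstream, with a median of -233.5 bp, and the conservative summit farthest downstream is that of mir-40 at 99 bp.

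Most core summits lay upstream of the annotated 5′ ends, in a window that itself reaches farther upstream than downstream, so the distances describe the bound set and are no test of position. The nearest core summit lay at a median of -233.5 bp, with quartiles of -318.8 and -81.0 bp and a range of -463 to 99 bp. The median was -255.5 bp for inside genes, -176.0 bp for outside genes and -191.0 bp for 1765 bound protein-coding genes. Distances to a hairpin and to a gene start are not the same measure, since the former leaves out any transcript in front of the hairpin. The 29 summits had a median signal of 268, against 240 over all conservative peaks. Outside genes had 14 summits with a median of 338, and inside genes 15 with a median of 235.2.

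Most core-bound genes were bound in both replicates. Of the 34 genes 26 had a core summit in each replicate's own set. Replicate 1 alone bound mir-40 and mir-41. Replicate 2 alone bound mir-8192, mir-4929, mir-58.1, mir-5551, mir-48 and mir-241. Of the 29 summits 21 had a peak that overlapped both replicates' peaks (72.4%), against 63.6% of all conservative peaks. Among the 21 summits found only in wide windows 15 had such a peak (71.4%). The rest overlapped a peak of replicate 2 only, namely those of mir-34, mir-243, mir-392 and let-7 and the summit of mir-235 at -1154 bp.

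A further 14 genes were bound in a replicate's own set but not in the conservative set. Replicate 1 added mir-2 and mir-8196.2 (signal 266 at -63 bp). Replicate 2 added mir-2 as well, at -417 bp against -255 and -459 bp in replicate 1. It also added lin-4, mir-42, mir-43, mir-44, mir-67, mir-124, mir-260, mir-800, mir-2216, mir-4920, mir-8209 and mir-55b, whose record lies across mir-55 on the other strand.

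**Figure D4:**
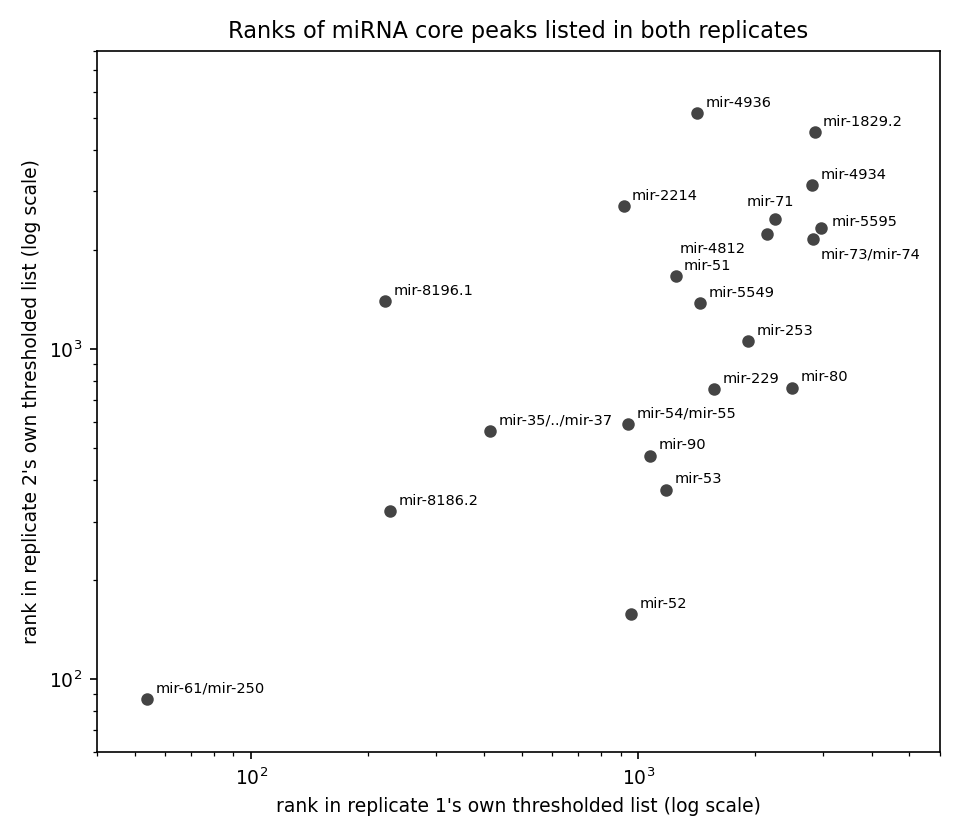
Rank of each miRNA core peak in replicate 1's list of 3340 peaks (x, log scale) and in replicate 2's list of 5333 (y, log scale), for peaks that overlapped a thresholded peak of both. The peak of mir-61 and mir-250 is nearest the top in both lists (54 and 87), mir-52 is nearer the top in replicate 2 (157 against 958) and mir-8196.1 in replicate 1 (222 against 1394).

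The 23 genes bound only in the wide window were of several kinds, and for some the summit sat at another gene's start. The strongest was mir-1828 (signal 1586 at -1869 bp), which lies in pash-1, the gene of Drosha's partner, and has its summit in the core window of pash-1 itself. In rps-20, a ribosomal protein gene, mir-354 had a summit at -837 bp (signal 1084) in the windows of rps-20 and ekl-4. In gmps-1, the gene of GMP synthetase, mir-2216 had one at -1795 bp (signal 621) in the windows of gmps-1 and cap-2. In rpl-24.1, another ribosomal protein gene, mir-353 had one at -1007 bp (signal 513) that also lay in the window of a snoRNA gene. In each of these 4 the summit lay in a core window of the host.

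Others among the strongest wide summits were at no annotated small RNA gene or protein-coding start. They included mir-8190 at -1130 bp (signal 563) inside hmr-1, the cadherin gene, and mir-2215 at -1490 bp (signal 473). The genes mir-38, mir-39, mir-56, mir-64, mir-65 and mir-66 shared the peaks of their clusters given above. The other 11 were mir-34, mir-72, mir-235, mir-237, mir-243, mir-392, mir-1819, mir-2212, mir-2221, mir-5592.1 and let-7, with signals from 106 to 362. The call of let-7 rests on its longer record, since its summit lies more than 2000 bp upstream of the mature let-7 strand. Both summits of mir-235 and the summit of mir-237 lay in tRNA windows. Of the 36-base words in these peaks, only 42.3% and 83.3% at mir-235 and 58.0% at mir-237 occurred once in the genome. At every core peak all such words were unique, except at mir-5595 with 97.3% in 1 of its peaks.

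The sequence under the miRNA summits was described by GC content and by short motifs. Within 50 bp of the summit the median GC content was 50.5% over the 29 core summits and 48.5% over all conservative summits. The B box, an internal promoter element of tRNA genes, searched as GGTTCGA, any 2 bases and CC on both strands within 150 bp, was found at 2 of the 29 (6.90%), those of mir-51 and mir-4936. It was found at 65.1% of summits in tRNA windows and 8.03% of all conservative summits.

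GAGAG was searched on both strands in 101 bp windows, with overlapping matches allowed. It was present at 19 of the 29 core summits (65.5%), but these include the 5 printed ones from which the motif was chosen. Without those it was at 14 of 24 (58.3%), and at 10 of the 21 summits found only in wide windows (47.6%). All conservative summits had it at 50.5% and those in protein-coding core windows at 46.8%, so no excess at miRNA summits is read from these shares. Windows of the same length centred 200 bp upstream held it at 15.9% of the 227 miRNA genes that were not core-bound and at 15.0% of protein-coding genes. The longer word CGAGAG, which contains GAGAG, was present at 12 of 29 (41.4%), at 7 of 24 without the printed ones (29.2%) and at 6 of the 21 wide-only summits (28.6%). It was at 18.5% of all conservative summits. The windows upstream held it at 6.17% of miRNA genes not core-bound and 3.12% of protein-coding genes. All 5 printed windows hold CGAGAG, and no excess is read from its shares either. Among the miRNA core summits, all ranked above that of mir-51 held GAGAG, except that of mir-8196.1. These include the 5 printed ones, and the cut falls at the next summit without the motif. No link between rank and motif is read from this order. A match is a run of letters and was not tied to any factor, and the summits, by contrast with the upstream windows, were placed by the peaks themselves.

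Genes that make, use and answer to miRNAs were described from 3 lists, with a summit in the core window of any annotated 5′ end, where 9.68% of protein-coding genes were bound. In the processing list 3 of 5 were bound. The strongest was pash-1, with a signal of 1586 at -79 bp, followed by lin-28, whose protein blocks let-7 processing (402 at 1 bp), and xrn-2, a nuclease that degrades miRNAs (131 at -32 bp). The genes of the nucleases themselves, drsh-1 and dcr-1, were not bound in the wide window.

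In the Argonaute and effector list 4 of 9 genes were core-bound, and 8 of 9 were bound in the wide window, against 16.7% of protein-coding genes. The miRNA Argonaute genes alg-1 and alg-2 had signals of 646 at -381 bp and 209 at -30 bp. The genes vig-1 and tsn-1, of components of the RNA-induced silencing complex, had 1188 at -406 bp and 386 at -309 bp. The wide window added alg-5, ain-1, nhl-2 and cgh-1, with summits from -952 to -775 bp, and left out ain-2. Among 9 classical targets lin-14, the first known target of lin-4, was bound at -131 bp (signal 315), as was lin-28, which is on both lists. The wide window added lin-41 and let-60. The lin-14 peak had core summits in replicate 2 only, and all core-bound genes of the other lists were bound in both replicates.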

How the data were processed

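Chromatin immunoprecipitation of tagged HMG-1.2 was sequenced in 2 replicates of 1 group of whole young adults. The authors deposited peak lists on ce11, per the labels, named as thresholded or ranked by the irreproducible discovery rate. Which aligner and peak caller were used is not given in the sources used here. Every peak has a deposited signal of unstated scale and a deposited score of up to 1000, with none under 830 in the conservative set. Depth is unknown, so no interval that needs it is given.

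Summits (the deposited start plus offset) were assigned to Ensembl release 115 gene records with Python 3.11.15 and numpy 2.4.6, and the assignment was tested on simulated summits. Replicate peaks were matched by an overlap of at least 1 bp. Of the 261 genes 257 had a RefSeq symbol and 260 a RefSeq mature arm. All core-bound genes were named, with peak values for those of highest signal, the strongest genes bound only in the wide window and the members of 12 miRNA and 3 pathway lists. Of the mir-58 list the names mir-58 and mir-1834 matched no record. The members, lists and tests were chosen with earlier results of these data known. Other peak sets and windows were tried as alternatives.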

Additional observations from a re-analysis of the deposited data

How the results depend on the processing

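Of 44 alternative values, 35 stayed within 1.5 times the reported count or within 1 SD of the reported share, and 9 moved further. The 34 core-bound genes became 20 with the peaks above the median signal and 16 with a narrow window of 250 bp upstream to 50 bp downstream. In that narrow window 6.13% of miRNA genes were bound and 5.47% of protein-coding genes, so the difference all but closed. In a broad window of 1000 bp upstream to 200 bp downstream the shares were 17.6% and 11.7%, and the difference remained. The inside share of 17.0% became 24.5% with the authors' other thresholded set, 9.43% with peaks above the median signal and 12.3% with peaks that overlapped both replicates. The outside shares beside these were 14.2%, 6.45% and 8.39%. In the narrow window the inside share was 6.60% and the outside share 5.81%. In the broad window they were 26.4% and 11.6%. With same-strand hosts only, the inside share was 13.5% and the outside share 12.8% in the conservative set. Leaving out either replicate gave inside shares of 16.0% to 21.7%. The narrow window holds fewer bases, and the cause of the other moves was not tested. Of the 196 miRNA genes whose core window overlapped no protein-coding core window, 23 (11.7%) were bound. Removing summits in windows of tRNA, snRNA, snoRNA or rRNA genes, an alternative chosen after seeing the data, left all 34. No core summit lies in such a window, so this value could not move, though it is among the 35 that stayed. No paired analysis was possible because there was 1 group and nothing to pair. Peak lists without read totals limit every count here: a gene without a listed summit may still be occupied below the calling threshold.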
